A study of Ramazzottius varieornatus with 27 samples.

Results

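The gene g12777 of the tardigrade Ramazzottius varieornatus, known as the anhydrobiosis-related Mn-dependent peroxidase AMNP, was followed by RNA-Seq after exposure to gamma ray. It was taken by its gene ID from the deposited expression matrix, where it had 1 transcript model, g12777.t1, among 14532 transcripts of 13920 genes. Animals that had received 500 Gy of 60Co gamma ray were collected 4, 6, 9, 12, 15, 18, 21 and 24 h later, with 3 samples at each of these 8 times, and 3 samples were non-irradiated controls. Each of the 27 libraries held the RNA of 30 whole individuals. Irradiated animals were kept at 22 °C until sampling. No genotype or age was given for any group, and no sampling time for the controls, so time on the plate and time after irradiation cannot be told apart. The samples were technical triplicates, and p-values therefore measure only the spread between these samples. The matrix carries IDs only and 0 of its IDs matched the 23164 genes of the reference table (assembly Rvar_4.0), so the name rests on the gene ID and could not be checked against the data. The sequence and position of the gene were not analysed here.

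Peroxidases reduce peroxides such as hydrogen peroxide, and a Mn-dependent peroxidase needs manganese for this. Gamma ray splits water in cells into radicals and peroxides, which attack DNA, proteins and lipids, and enzymes that remove them limit this damage. Anhydrobiosis is the dried ametabolic state of terrestrial tardigrades, and the name of AMNP ties the enzyme to that state. The level of its transcript along the time course bears on the question of whether an anhydrobiosis gene is also regulated after irradiation.

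Values are TMM-normalized TPM, a share of each library divided by transcript length and scaled between libraries. The sum of a library carries no information on its depth after this step, so no counting interval was given. The paper does report read numbers for each library. Reads mapped to coding sequences were fewer in every 24 h library than in any library of another group. By the same report, 9 h replicate 1 had the lowest share of reads mapped to the genome. Depth thus differed between the times, and its part in the levels and in the spread of replicates was not tested. The number of transcripts above 0 lay between 9575 and 13667, with 9 h replicate 1 lowest, and was 10570 in 18 h replicate 2. The number of PCR cycles in library preparation differed by the methods, at 15 for all 4 h libraries and for 6 h replicates 1 and 2, 21 for 6 h replicate 3 and all libraries of 9 h to 21 h, and 23 for 24 h. It is not stated for the controls.

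The AMNP transcript was above 0 in all 27 libraries and was high from 4 h to 9 h after irradiation. At 4 h it was at 729, 678 and 692 TPM in replicates 1, 2 and 3, against 249.5, 291 and 257 TPM in the 3 controls. All 4 h libraries lay above all controls, and the lowest of them was at 2.33 times the highest control. At 6 h the transcript was at 638, 580.2 and 577 TPM, again with no overlap with the controls. At 9 h it was at 809, 542 and 587 TPM, also above every control. The share of all tested transcripts that separate from the controls in this way was not counted. The mean was 699.8 ± 26.1 TPM at 4 h, 598 ± 34.5 TPM at 6 h and 646 ± 142 TPM at 9 h, against 266 ± 22.3 TPM in the controls (SD, n = 3 each). The wide spread at 9 h came from replicate 1, which lay at 1.43 times the mean of the other 9 h libraries.

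**Figure D1:**
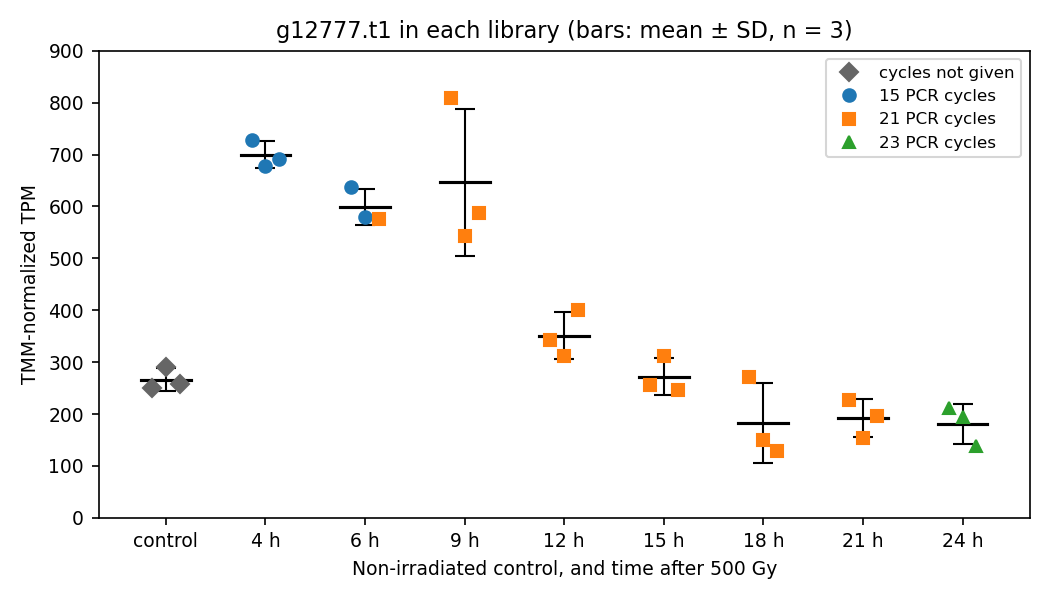
Level of g12777.t1 in each of the 27 libraries (vertical axis, TMM-normalized TPM) by group (horizontal axis), with symbols for the number of PCR cycles and bars for the mean and SD of 3 libraries. The 4 h, 6 h and 9 h libraries sit between 542 and 809 TPM, and all other libraries sit between 129 and 399.6 TPM.

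A single limma fit of log2(value + 1) over all 27 libraries gave the comparisons between groups, with Benjamini-Hochberg adjustment over the 12820 transcripts that reached 1 TPM in 3 or more libraries. A call needed an adjusted p below 0.05 and group means that differed by more than 2-fold. By this rule AMNP was called higher than in the controls at 4 h, 6 h and 9 h and at no later time. At 4 h the ratio of the means was 2.63 and the log2 fold change 1.39 (standard error, SE, 0.21, 95% interval 0.95 to 1.84, limma adjusted p = 0.0011). Of all tested transcripts, 0.250% were called higher and 0.265% lower at 4 h, and 8.51% had an unadjusted p under 0.05. At 6 h the ratio was 2.25 and the log2 fold change 1.17 (SE 0.21, limma adjusted p = 0.00247), where 0.655% of transcripts were called higher. At 9 h the ratio was 2.43 and the log2 fold change 1.26 (SE 0.21, limma adjusted p = 0.00019), where 5.30% were called higher. The share with an unadjusted limma p under 0.05 was larger than at 4 h, with 21.5% at 6 h and 38.3% at 9 h. Among those tested, 98.8% had a lower log2 fold change than AMNP at 4 h. At 6 h this share was 98.2%, and 9 h gave 96.8%. The 8 comparisons with the controls share the same 3 control libraries. As 3 libraries against 3 allow no exact permutation p under 0.10, these calls rest on the spread that limma pools over groups and transcripts. In bulk RNA of whole animals, more cells that express the gene and more transcript per cell cannot be told apart.

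**Figure D2:**
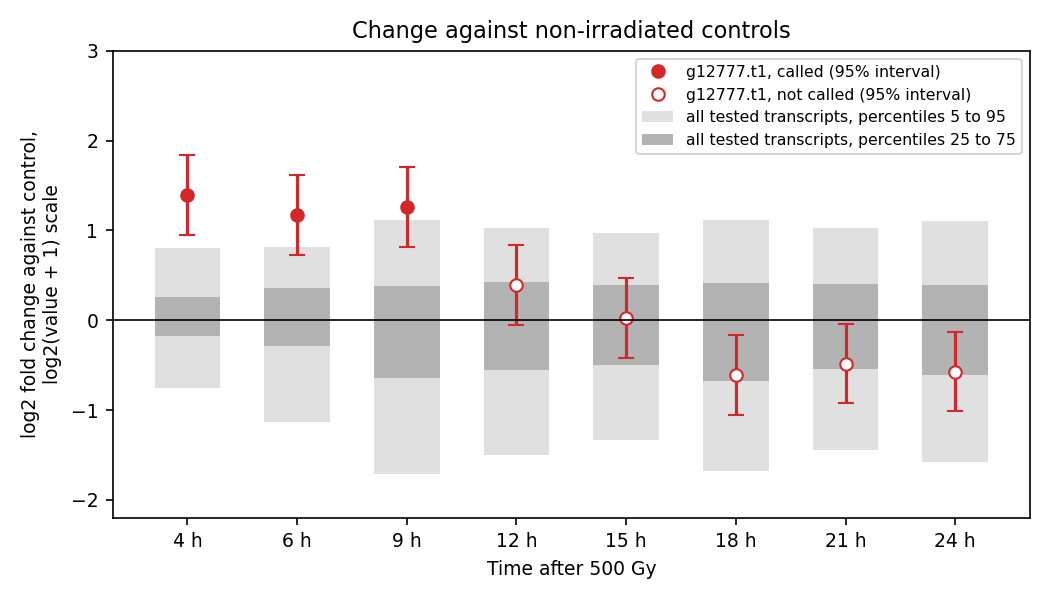
Log2 fold change of g12777.t1 against the controls on the log2(value + 1) scale (vertical axis) at each time after 500 Gy (horizontal axis), with 95% intervals from limma, over grey bars for percentiles 5 to 95 and 25 to 75 of all 12820 tested transcripts. The points at 4 h, 6 h and 9 h (1.39, 1.17 and 1.26) are the called ones, and those from 12 h to 24 h lie inside the percentiles 5 to 95 of all transcripts.

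At 12 h and 15 h the transcript was no longer called against the controls. At 12 h it was at 342, 311 and 399.6 TPM in the 3 replicates. These lay above every control, and the mean of 351 ± 44.8 TPM was 1.32 times that of the controls (log2 fold change 0.39, SE 0.21, limma adjusted p = 0.2). An unadjusted limma p under 0.05 was found for 35.1% of tested transcripts at 12 h. Over the 11 other alternatives of processing, the limma adjusted p at 12 h lay between 0.0344 and 0.222, and none gave a call. The lowest came with library weights, at a log2 fold change of 0.43. A fit of 12 h and the controls alone gave a limma adjusted p of 0.0508. Without the TMM factor it was 0.0583, at a log2 fold change of 0.54. The 15 h replicates were at 256, 313 and 247 TPM, which overlapped the range of the controls. The log2 fold change was 0.03 with a 95% interval of -0.42 to 0.47, which covers ratios of 0.749 to 1.39. Leaving out control replicate 1 or 15 h replicate 2 turned its sign.

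From 18 h to 24 h the means lay below that of the controls, without a call. At 18 h the transcript was at 271, 149 and 129 TPM in the 3 replicates, so that replicate 1 lay within the range of the controls and the others below it. This was a log2 fold change of -0.61 (SE 0.21, limma adjusted p = 0.035) with a ratio of 0.689, under the 2-fold threshold. Without 18 h replicate 1 it was -0.93 (limma adjusted p = 0.00104), still under 2-fold, and without 18 h replicate 3 it was -0.40 (limma adjusted p = 0.198). At 21 h the values were 226, 154 and 197 TPM, and at 24 h 211, 194 and 138 TPM. All of these lay below every control, but the share of all tested transcripts that separate in this way was not counted. An unadjusted limma p under 0.05 was found for 33.9% of tested transcripts at 21 h and 36.7% at 24 h. The log2 fold change was -0.48 at 21 h (SE 0.21, limma adjusted p = 0.113) and -0.57 at 24 h (SE 0.21, limma adjusted p = 0.0529). Over the 11 other alternatives the limma adjusted p lay between 0.0411 and 0.387 at 21 h, the lowest with library weights. At 24 h it lay between 0.0364 and 0.154, and neither time was called under any of them. Among all tested transcripts, 8.95% were called lower at 18 h, while 5.76% were at 21 h, and 24 h gave 7.30%. The late differences were smaller under another scaling. When every library was brought to an equal sum, which removes the TMM factor, the log2 fold change was -0.38 at 18 h (limma adjusted p = 0.181), -0.28 at 21 h (limma adjusted p = 0.387) and -0.42 at 24 h (limma adjusted p = 0.154). The median change of all tested transcripts moved by 0.18, 0.16 and 0.12 between the scalings at these times. Relative to that median, AMNP was at -0.50, -0.44 and -0.49 with the TMM factor and at -0.45, -0.40 and -0.46 without it.

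With levels above the controls early and mostly below them late, irradiated and control libraries did not separate as a whole. Of the 24 irradiated libraries, 13 lay above the highest control, 9 below the lowest and 2 between them. The mean log2(value + 1) was 8.38 in the irradiated libraries and 8.06 in the controls, a difference of 0.32 (exact two-sided permutation test over all 2925 choices of 3 libraries, p = 0.525, where the smallest possible p is 0.000342). This test treats the libraries as independent, though they formed 9 groups of 3 technical replicates. Neither its p nor its smallest possible p can thus be read as from independent samples. Across the 9 groups the transcript did vary, with a moderated F of 28.6 (limma adjusted p = 5.5e-07), the 18th smallest p of the 12820 transcripts tested. An adjusted p under 0.05 in this test was found for 31.2% of transcripts.

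From high to low, the means were in the order 4 h, 9 h, 6 h, 12 h, 15 h, control, 21 h, 18 h and 24 h, and no neighbours in this order were called different from each other. The widest gap between neighbours was that of 6 h over 12 h, at 0.77 on the log2 scale (SE 0.21, limma adjusted p = 0.0647), and the libraries of these groups did not overlap. Over all 36 pairs of groups AMNP was called in 15. All 15 set one of 4 h, 6 h and 9 h against one of the controls, 15 h, 18 h, 21 h and 24 h. Of all tested transcripts, the share called lower than at 4 h was 2.24% for 15 h, 5.87% for 18 h, 3.97% for 21 h and 5.82% for 24 h. Relative to 6 h it was 0.647% for 15 h, 2.22% for 18 h, 0.975% for 21 h and 1.79% for 24 h. The log2 fold change of AMNP in these 8 pairs lay between -2.004 (18 h against 4 h) and -1.141 (15 h against 6 h). Among 4 h, 6 h and 9 h, 0 of 3 pairs were called by limma, with 0 at an unadjusted p under 0.05, and among the controls and 12 h to 24 h 0 of 15, with 9 at an unadjusted p under 0.05. The group of 12 h stood between these sets and was called against none of the others. At 12 h the mean was 0.501 times that at 4 h (log2 fold change -1.001, limma adjusted p = 0.00278), just inside the 2-fold limit, and this pair was called when 4 h replicate 2, 4 h replicate 3 or 12 h replicate 3 was left out. With all libraries, 3.54% of tested transcripts were called lower at 12 h than at 4 h. The pair of 18 h and 12 h was called without 18 h replicate 1 (log2 fold change -1.32, limma adjusted p = 0.0016), and that of 24 h and 12 h without 24 h replicate 1 (log2 fold change -1.09, limma adjusted p = 0.0404). Each left-out library held the highest value of its group, so its removal widened the fall. Without them 33 and 64 transcripts were called in these pairs in either direction, against 0 and 9 with all libraries.

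**Figure D3:**
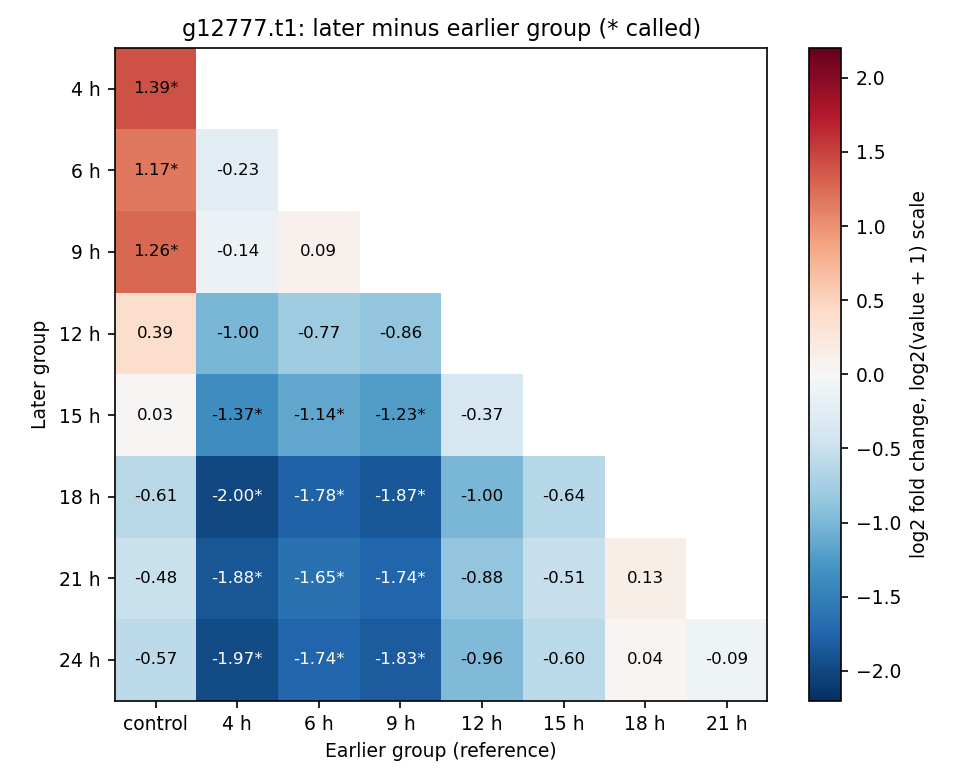
Log2 fold change of g12777.t1 on the log2(value + 1) scale for each of the 36 pairs of groups, the later group (rows) minus the earlier one (columns), with a star where the transcript was called. The 12 starred falls all set 15 h or later against 4 h, 6 h or 9 h, and the 3 starred rises set 4 h, 6 h and 9 h against the controls.

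All libraries of 9 h to 21 h had 21 PCR cycles. Against 9 h, the log2 level of AMNP dropped by 1.23 at 15 h (limma adjusted p = 0.0177), dropped by 1.87 at 18 h (limma adjusted p = 6.25e-05) and dropped by 1.74 at 21 h (limma adjusted p = 0.000308). Of the transcripts tested, 0.117% were called lower at 15 h, 0.757% at 18 h and 0.187% at 21 h. At 24 h, with 23 cycles, the log2 level dropped by 1.83 against 9 h (limma adjusted p = 6.67e-05), where 0.460% were called lower. The call at 15 h was lost without 9 h replicate 1 (log2 fold change -1.06, limma adjusted p = 0.0693), without 15 h replicate 1 (-1.19, limma adjusted p = 0.0703) and without 15 h replicate 3 (-1.17, limma adjusted p = 0.0628). At 12 h the mean was 0.543 times that at 9 h (log2 fold change -0.86, limma adjusted p = 0.0949) and the pair was not called, where 0.0624% of transcripts were called lower. When each fit held just its own pair of groups, the calls of 15 h, 18 h and 21 h against 9 h and of 18 h against 6 h were lost (limma adjusted p = 0.13, 0.141, 0.0908 and 0.0615 in that order).

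The number of PCR cycles changed within the 6 h group. At 6 h, replicate 3 with 21 cycles was at 577 TPM, against 638 and 580.2 TPM in replicates 1 and 2 with 15 cycles. Replicates 1 and 2 alone were called against the controls, with a log2 fold change of 1.19 (limma adjusted p = 0.0158). Within 15 cycles, the values at 4 h (678 to 729 TPM) lay above those of 6 h replicates 1 and 2. Replicate 3 was at 0.947 times the mean of replicates 1 and 2 (log2 fold change -0.08), a comparison that rests on 1 library with 21 cycles. The part of cycle number in the differences from the controls was not tested, as the controls have no stated number.

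The highest level of AMNP of all 27 libraries was in 9 h replicate 1, the library with the fewest transcripts above 0 and the one in which the methods report signs of adapter dimers. Without this library the log2 fold change of AMNP at 9 h against the controls was 1.09 (limma adjusted p = 0.00131).

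The AMNP transcript was among the abundant ones of the animal in every group. Since TPM is divided by length, it could be ranked against other transcripts. Its rank from the top of 14532 was 195 to 232 at 4 h, 179 to 216 at 6 h and 123 to 181 at 9 h, against 566 to 687 in the controls. It was 275 to 446 at 12 h, 412 to 589 at 15 h, 476 to 1422 at 18 h, 629 to 1146 at 21 h and 706 to 1247 at 24 h. As a share of the sum of its library, it made up 0.0625% to 0.0667% at 4 h and 0.0578% to 0.0815% at 9 h, against 0.0219% to 0.0273% in the controls. The lowest rank of the time course, 1422, was in 18 h replicate 3, where 90.2% of transcripts were still lower.

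On the log2(value + 1) scale, the SD of AMNP over replicates was smallest at 4 h and largest at 18 h of the 9 groups, a difference that was not tested. In TPM it was smallest in the controls (22.3) and largest at 9 h (142.5). The SD of log2(value + 1) was 0.05 at 4 h and 0.08 at 6 h, against 0.12 in the controls. The 9 h libraries had an SD of 0.30, those of 12 h and 15 h of 0.18 each, those of 18 h of 0.56, those of 21 h of 0.28 and those of 24 h of 0.32. Over all tested transcripts the 4 h libraries had a median SD of 0.21, those of 6 h of 0.22 and those of 9 h of 0.41. The 12 h libraries had a median of 0.24, those of 15 h of 0.25, those of 18 h of 0.38, those of 21 h of 0.27 and those of 24 h of 0.35, against 0.27 in the controls. The SD of AMNP was thus above the median at 18 h and 21 h and below it in all other groups. At 4 h 6.35% of tested transcripts had a smaller SD than AMNP, and at 18 h 66.4% did.

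Other transcripts were ranked by how closely they followed AMNP, by Pearson's r of log2(value + 1) over the 27 libraries. These values are a description, as the libraries share their groups, their scaling and the tissue. The levels and fold changes of the transcripts picked in this way are given without a test, since the pick fixes much of their pattern. The median r over the 12819 other transcripts was 0.03, and 7 had an r over 0.9. The most similar was g13440.t1, with r = 0.954 (Spearman's rho 0.916). It was at 655 ± 20.6 TPM at 4 h, 536 ± 33.8 TPM at 9 h, 256 ± 39.5 TPM at 12 h and 169 ± 44.6 TPM at 24 h, against 172 ± 23.6 TPM in the controls (SD, n = 3 each). Its log2 fold change against the controls was 1.93 at 4 h and -0.05 at 24 h. After the group means were removed, its r with AMNP was 0.805. The pick used the same 27 libraries, so this r is not independent of it. At 18 h both were highest in replicate 1 and lowest in replicate 3, with g13440.t1 at 286, 189 and 98.1 TPM in replicates 1, 2 and 3. In the controls, AMNP was highest in replicate 2 (291 TPM), where g13440.t1 was lowest (145 TPM). The next was g6204.t1, with r = 0.929 (Spearman's rho 0.885), at 1060 ± 129 TPM at 4 h, 756 ± 32.8 TPM at 9 h and 237 ± 12.3 TPM at 24 h, against 287 ± 12.1 TPM in the controls (SD, n = 3 each). After the group means were removed its r was 0.412. In 9 h replicate 1, where AMNP was highest, g13440.t1 was at 561 TPM and g6204.t1 at 720.1 TPM, against 498 and 549 TPM and 785 and 762 TPM in 9 h replicates 2 and 3. The high AMNP value of that library was thus matched by neither, as g6204.t1 was lowest there and g13440.t1 lay close to its replicate 3.

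The opposite patterns were weaker. The lowest r was -0.748, for g6948.t1, which was at 145 ± 11.5 TPM at 4 h and 196 ± 12.2 TPM at 18 h, against 151 ± 4.99 TPM in the controls (SD, n = 3 each). Its change stayed under 2-fold, at a log2 fold change of 0.37 at 18 h. The transcript g2081.t1, with r = -0.744, was at 41.1 ± 6.03 TPM at 6 h and 151 ± 30.0 TPM at 18 h, against 72.1 ± 16.8 TPM in the controls (SD, n = 3 each). Its log2 fold change at 18 h against the controls was 1.06. The files used here pair none of these IDs with a gene name.

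**Figure D4:**
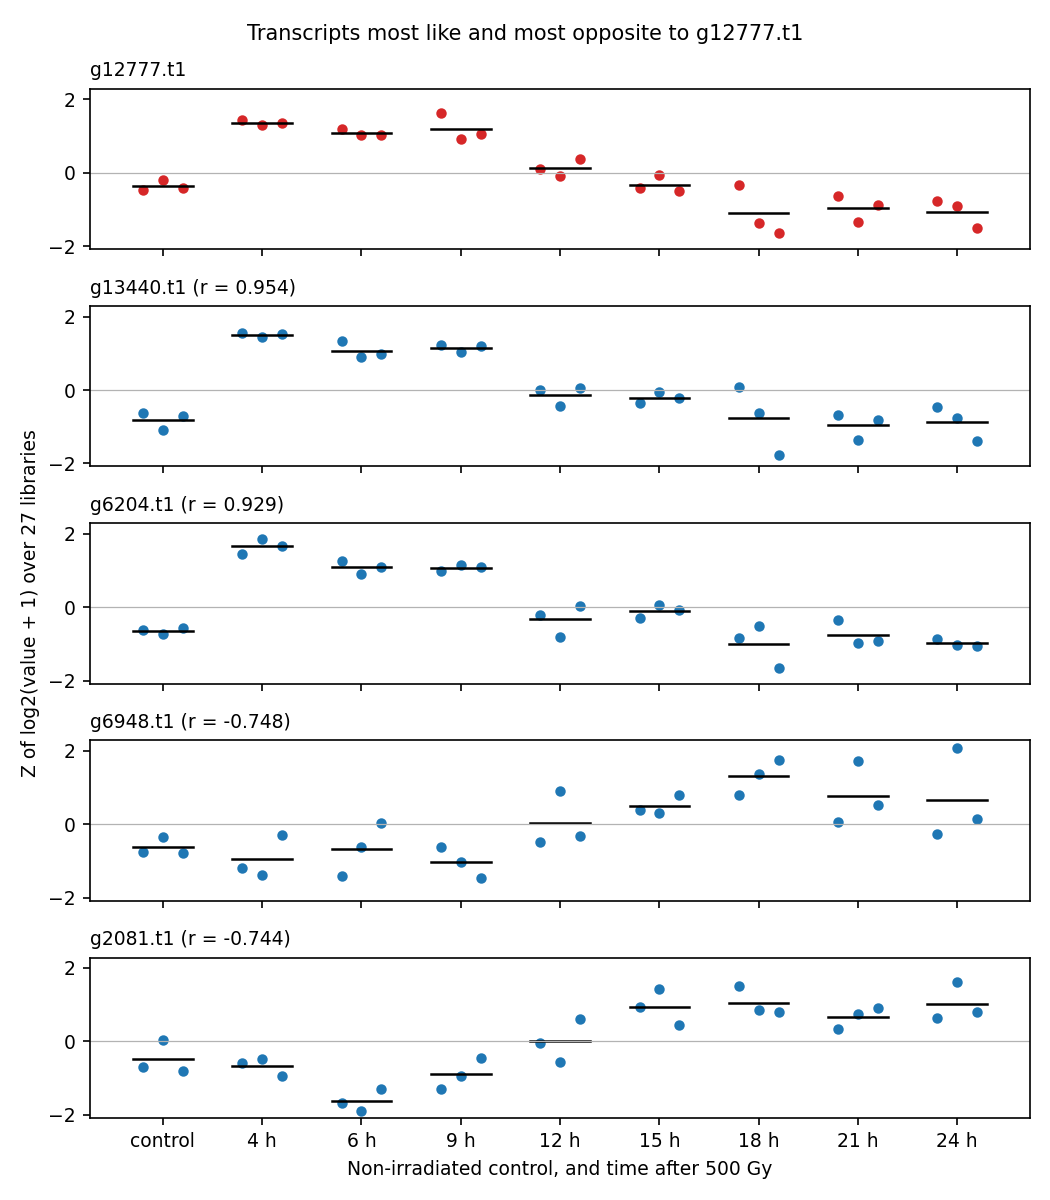
Z of log2(value + 1) over the 27 libraries (vertical axis) by group (horizontal axis) for g12777.t1, the pair of transcripts most like it and the pair most opposite, with points for libraries and lines for group means. The upper 3 panels are high from 4 h to 9 h and lower from 12 h, and the lower panels (r = -0.748 and -0.744) are highest from 15 h on.

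The higher level at 4 h, 6 h and 9 h kept its direction and its call under every alternative tried against the controls. The log2 fold change lay between 1.36 and 1.42 at 4 h, between 1.141 and 1.281 at 6 h and between 1.09 and 1.44 at 9 h over the other ways of processing. With each library left out in turn it lay between 1.35 and 1.46 at 4 h, 1.12 and 1.23 at 6 h and 1.09 and 1.37 at 9 h.

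**Figure D5:**
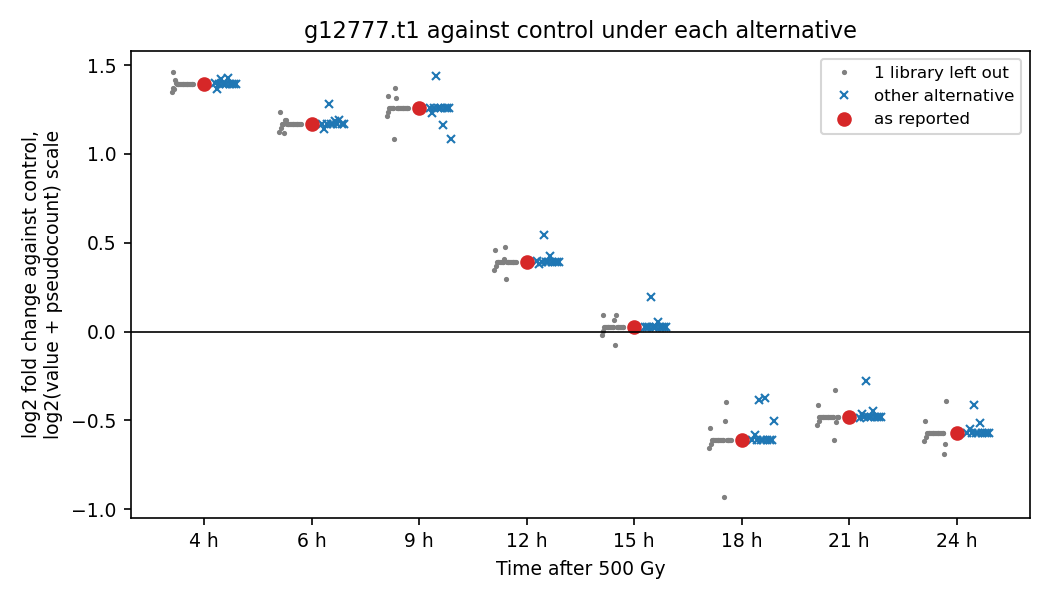
Log2 fold change of g12777.t1 against the controls (vertical axis) at each time after 500 Gy (horizontal axis) as reported, with 1 library left out and under the 11 other alternatives. All points at 4 h, 6 h and 9 h lie above 1.08, and at 18 h the value without replicate 1 (-0.93) stands apart.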

How the data were processed

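Reads were aligned by the authors to coding sequences with bowtie2, and RSEM, run through Trinity, gave TPM per transcript. The authors then applied TMM across libraries, so the deposited signal values are TPM times a library factor. The submitters' processing notes also name DESeq2, for counts that were not analysed here. RSEM divides reads that map more than once, so a near-identical copy of the gene could share its reads. As TPM is not a count, limma 3.58.1 in R 4.3.3 was run on log2(value + 1) (pseudocount 1, means of 9 groups, trend, no block), for transcripts reaching 1 in 3 or more libraries. The fit was run on simulated data with independent noise. The planted changes were larger than those of AMNP against the controls, so that run does not test changes of this size. The transcripts named beside g12777.t1 were the 2 with the highest and the 2 with the lowest Pearson's r with it. The gene and this rule were chosen with earlier results of these data known. Alternatives were pseudocounts of 0.1 and 10, no filter, no TMM factor, fits of single pairs, a replicate block, library weights, no fold threshold, 6 h replicate 3 as its own group, summed models and each library left out. Figures used Python 3.11.15 and matplotlib 3.10.9.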

Additional observations from a re-analysis of the deposited data

How the results depend on the processing

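The alternatives gave 638 values for the 8 fold changes of g12777.t1 against the controls, the 7 between successive times, the test across groups and the mean difference of irradiated libraries. Of these, 628 kept their direction and their side of the threshold, 9 turned in sign and 1 passed the threshold. Many of these values could move in their p-value only. A library left out changes the fold change just where its own group is compared. No filter, fits of single pairs, the replicate block, no fold threshold and summed models leave the fold change as it was. The count of 628 is therefore no measure of robustness. With no fold threshold the transcript was called at 18 h (log2 fold change -0.61, limma adjusted p = 0.035). By that rule 29.8% of all tested transcripts were called at 18 h. All turns of sign were of small differences that were not called. Library weights gave -0.0236 for 9 h against 6 h and -0.0730 for 21 h against 18 h. Leaving out 9 h replicate 1 and 18 h replicate 2 together, an alternative chosen after the data were seen, gave -0.0823 for 9 h against 6 h. With 1 library left out, the log2 fold change ranged from -0.0779 to 0.0934 for 15 h against the controls, from -0.0823 to 0.205 for 9 h against 6 h, from -0.0843 to 0.447 for 21 h against 18 h and from -0.241 to 0.0933 for 24 h against 21 h. With 1 library left out, the adjusted p lay between 0.0943 and 0.463 at 12 h, 0.00104 and 0.198 at 18 h, 0.0419 and 0.379 at 21 h, and 0.015 and 0.246 at 24 h. The number of the 36 pairs called was 11 in fits of single pairs, 17 with no fold threshold and 14 to 16 with 1 library left out. Over all pairs and settings, calls were lost 7 times and gained 7 times.

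Replicate numbers did not pair the libraries, as the deviations of same-numbered libraries correlated at -0.16 to 0.13, over 0.1 in 2 of 108 pairs, and 7 of 27 libraries were closest to their own number. With the replicate block 15 pairs were called, and the adjusted p at 18 h and 24 h was 0.024 and 0.0374.

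Over all transcripts, 66 were called at 4 h (51 to 270 under the other alternatives, and 30 to 90 without 1 library). At 6 h 369 were called (110 to 1114, and 110 to 438) and at 9 h 1621 (966 to 3461, and 1109 to 1831), the highest numbers with no fold threshold. Of the calls at 6 h, 39.4% were higher ones without the TMM factor and 22.8% with it, and of those at 9 h 63.0% and 41.9%. By Spearman's rho 1 of the 4 transcripts named for likeness was still among the 4, and by the group means 0 were. They stayed near the ends of the ranking. By the group means g13440.t1 ranked 3, g6204.t1 5, g6948.t1 12814 and g2081.t1 12807 of 12819.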
